A study of Mus musculus with 4 samples.

Results

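The genes described are 10 components of the microRNA machinery, named by their symbols, out of 37718 gene rows counted in each sample. They comprise the nuclear processing enzymes Drosha and Dgcr8, the export receptor Xpo5, the cytoplasmic processing enzyme Dicer1 with its partner Tarbp2, the 4 Argonaute genes Ago1, Ago2, Ago3 and Ago4, and the effector gene Tnrc6a. All 10 had a row in each of the 4 samples, together with 210 intron rows, 308 exon segments, 230 annotated junctions and 2 unannotated junctions. The rule for the members was their names and used no measured value, but it was set with earlier results of these data known.

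MicroRNAs are cut from primary transcripts in the nucleus by DROSHA with its RNA-binding partner DGCR8, exported by exportin 5, and trimmed to a duplex by DICER1. One strand is loaded onto an Argonaute protein, which recruits TNRC6 proteins, and these bring in deadenylation and decapping enzymes that repress the target mRNA. In the testis, the pathway is known to be required in germ cells for normal spermatogenesis.

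The study asked how loss of TDRD6, a Tudor domain protein of the spermatocyte and spermatid, affects splicing in late meiotic prophase. Total RNA depleted of ribosomal RNA was sequenced from hCD4+ cells, which were taken from mouse testis at 20 days post partum by magnetic sorting. The hCD4 marker is driven by the Tdrd6 promoter, so that the sort depends on the promoter of the disrupted gene, and it enriches diplotene cells without making them pure. There were 2 Tdrd6-/- samples and 2 Tdrd6+/- samples, each from a pool of at least 4 mice, and the Tdrd6+/- controls thus also carried a disrupted allele. Nothing in the labels says more about how the 2 samples of a genotype were separated, so the p-values below measure the spread between these samples only.

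Each sample had 43778449 to 47221554 tallied fragments. The share of intron counts in the sum of intron and gene counts differed between libraries, at 34.5% and 29.5% in Tdrd6+/- and 29.8% and 23.4% in Tdrd6-/-. Tdrd6 itself had 1269 and 1412 CPM (the count relative to the library total, after TMM scaling) in Tdrd6+/- and 11.4 and 12.5 CPM in Tdrd6-/-. The spermatocyte markers Sycp1, Sycp3, Hormad1, Piwil1, Ccna1, Ybx2 and Meioc were all above 100 CPM in every sample. Of these, Sycp1 was higher in Tdrd6-/- (adjusted p = 0.0467 by edgeR) and Piwil1 lower (adjusted p = 0.0773). The summed level of 5 spermatid markers was 3.25 and 5.995 CPM in Tdrd6+/- and 9.80 and 8.28 CPM in Tdrd6-/-. Nearly all of it came from the acrosomal gene Acrv1, which passed the test (adjusted p = 0.0565), whereas Tnp1, Tnp2, Prm1 and Prm2 were each below 0.4 CPM. The summed level of 6 spermatogonial markers was at most 17.7 CPM in Tdrd6+/- and was 20.1 and 21.4 CPM in Tdrd6-/-. Those of 6 Sertoli markers were 36.1 to 39.5 and 39.0 to 46.5 CPM, those of 5 Leydig markers 17.1 to 21.2 and 19.8 to 22.1 CPM, and those of 5 peritubular and blood markers 5.58 to 7.36 and 5.53 to 8.85 CPM. The Leydig marker Insl3 was counted in a row merged with another gene, at 7.94 and 14.1 CPM in Tdrd6+/- and 13.0 and 12.3 CPM in Tdrd6-/-. None of these 22 markers was called by edgeR or by DESeq2, and 2 had an unadjusted p under 0.05 in edgeR. The part of these shifts in the results on the machinery genes was not tested.

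The level of each machinery gene was read as CPM per kb of annotated exon, which allows genes of different length to be compared. Tarbp2, which encodes the double-stranded RNA-binding partner of DICER1, had the highest level, with 31.2 and 33.3 CPM per kb in Tdrd6+/- and 32.5 and 36.8 CPM per kb in Tdrd6-/-. Xpo5 followed with a mean of 20.4 ± 1.35 CPM per kb (SD, n = 4 samples) and Ago4 with 18.3 ± 2.38 (SD, n = 4 samples). Their ranges over the samples overlapped, so their order is within the spread. Dgcr8 had a mean of 10.6 CPM per kb. Drosha at 6.54 and Ago2 at 5.32 CPM per kb overlapped in their ranges over the samples, although Drosha was the higher within each sample. Ago3 at 2.76 and Tnrc6a at 2.53 also overlapped, and their order changed between samples. Dicer1 and Ago1 were the lowest, with means of 1.01 ± 0.142 and 0.929 ± 0.129 CPM per kb (SD, n = 4 samples), and their ranges overlapped too. Between all other neighbours in this order the ranges did not overlap. Ago4 was thus the most abundant Argonaute mRNA in these cells per length of exon in all 4 samples, and Ago1 the least abundant. Dividing by the longest annotated transcript in place of all exons exchanged only the neighbours Ago3 and Tnrc6a in the order.

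**Figure D1:**
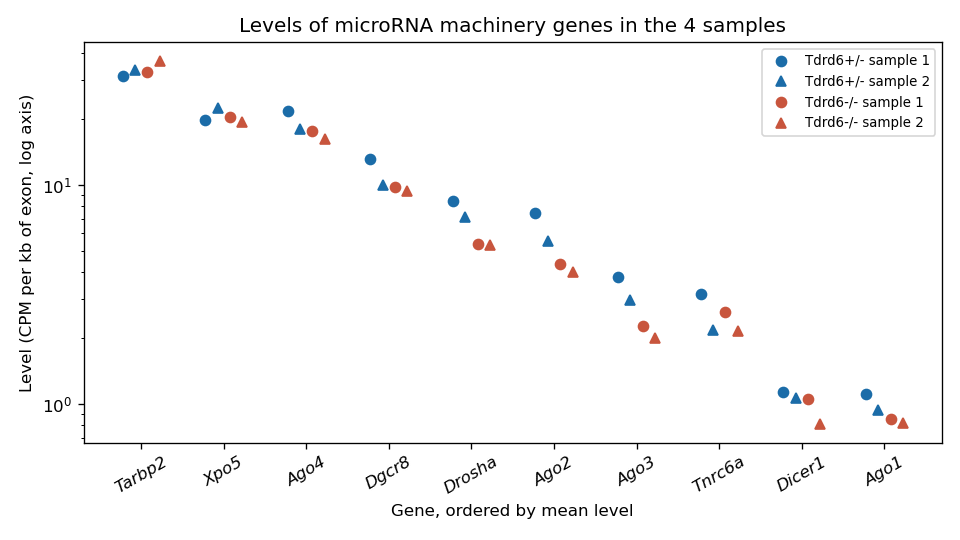
Level of each of the 10 genes in CPM per kb of exon (log axis), with 1 point for each of the 4 samples, blue for Tdrd6+/- and red for Tdrd6-/-, circles for sample 1 and triangles for sample 2. Levels ran from about 1 CPM per kb for Ago1 and Dicer1 to over 31 for Tarbp2, and both Tdrd6-/- samples lay below both Tdrd6+/- samples for 7 genes, among them Drosha, Ago2 and Ago3.

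Loss of TDRD6 was accompanied by lower mRNA levels of 3 of the 10 genes, Drosha, Ago2 and Ago3, each at 0.627 to 0.685 times the level in Tdrd6+/-. No member passed the test as higher in edgeR or in DESeq2, and none had an unadjusted p under 0.05 in that direction. In the whole data, 3.78% of the 16555 genes tested were called lower at a false discovery rate of 0.1, and 169 genes were called higher. Both Tdrd6-/- samples lay below both Tdrd6+/- samples for 7 of the 10 members, and for 23.4% of all genes tested. The median log2 fold change was -0.25 over the members and 0.01 over all genes tested. In sorted bulk cells, a smaller number of cells of a type and less RNA per cell cannot be told apart.

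Among the genes of the nuclear step, Drosha encodes the RNase III enzyme of the Microprocessor complex and is the plus strand gene at chr15:12824815-12935291 (mm10). Its level was 8.42 and 7.11 CPM per kb in Tdrd6+/- and 5.34 and 5.29 CPM per kb in Tdrd6-/-. The genotypes did not overlap, and the 2 Tdrd6-/- samples were closer to each other than the 2 Tdrd6+/- samples. The log2 fold change of Drosha was -0.55 with a standard error of 0.15 (adjusted p = 0.0557, quasi-likelihood test of edgeR, adjusted after Benjamini and Hochberg). The call was held by DESeq2 (adjusted p = 0.0298). In edgeR it was lost when Tdrd6+/- sample 1, Tdrd6-/- sample 1 or Tdrd6-/- sample 2 was left out, with adjusted p of 0.279, 0.219 and 0.439, and without TMM scaling (0.156).

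Dgcr8 encodes the partner that binds the primary transcript, and its gene is on the minus strand at chr16:18253948-18289246. It was counted in a row merged with 2 microRNA genes inside it, which are described below. Its level was 13.1 and 9.95 CPM per kb in Tdrd6+/- and 9.79 and 9.41 CPM per kb in Tdrd6-/-. The groups did not overlap, with Tdrd6+/- sample 1 the highest and sample 2 only just above the Tdrd6-/- samples. The log2 fold change of -0.27 with a standard error of 0.15 did not pass the test (adjusted p = 0.448 by edgeR), and it did so with Tdrd6+/- sample 2 left out (0.0857). Without Tdrd6+/- sample 1 the log2 fold change was -0.04.

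For the export and dicing steps no change was called. Xpo5 is the receptor that carries the hairpin precursors through the nuclear pore. Its level was 19.7 and 22.3 CPM per kb in Tdrd6+/- and 20.3 and 19.2 CPM per kb in Tdrd6-/-, with overlapping groups and a log2 fold change of -0.08 with a standard error of 0.13. Dicer1 had 1.13 and 1.07 CPM per kb in Tdrd6+/- and 1.05 and 0.806 CPM per kb in Tdrd6-/-, and its log2 fold change was -0.24 with a standard error of 0.19. Only Tdrd6-/- sample 2 stood clearly below the other 3 samples for Dicer1. Tarbp2 was the one member with a positive value, a log2 fold change of 0.10 with a standard error of 0.13, and its groups overlapped. Adjusted p for these 3 genes lay between 0.653 and 0.857 in edgeR.

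The 4 Argonaute genes encode the proteins that hold the mature microRNA, of which AGO2 is the slicing endonuclease. Ago2 lies on chromosome 15 from 73095844 to 73184935, and Ago3, Ago1 and Ago4 lie side by side on chromosome 4 between 126331704 and 126533472, all on the minus strand. Ago2 had 7.42 and 5.54 CPM per kb in Tdrd6+/- and 4.33 and 3.99 CPM per kb in Tdrd6-/-. Both Tdrd6-/- samples were below both controls, and Tdrd6+/- sample 1 was the highest. Its log2 fold change was -0.64 with a standard error of 0.15 (adjusted p = 0.0179 by edgeR).

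Ago3 had 3.80 and 2.98 CPM per kb in Tdrd6+/- and 2.26 and 1.99 CPM per kb in Tdrd6-/-. Here too the genotypes were apart. The log2 fold change of Ago3 was the lowest of the members at -0.67, with a standard error of 0.16 (adjusted p = 0.0177 by edgeR). Without Tdrd6+/- sample 1 the adjusted p rose to 0.211 for Ago2 and 0.159 for Ago3, and without Tdrd6-/- sample 2 to 0.235 and 0.305. Leaving out Tdrd6+/- sample 2 or Tdrd6-/- sample 1 ended neither call. With every gene that had at least 1 count kept in the fit, the adjusted p was 0.298 for Ago2, 0.267 for Ago3 and 0.326 for Drosha, and 75 genes were called in all.

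The neighbours of Ago3 did not pass the test. Ago1 had 1.11 and 0.942 CPM per kb in Tdrd6+/- and 0.853 and 0.816 CPM per kb in Tdrd6-/-, and Ago4 had 21.7 and 18.01 CPM per kb against 17.5 and 16.1. For both genes the genotypes did not overlap, although by a narrow margin. Their log2 fold changes were -0.29 with a standard error of 0.22 and -0.24 with a standard error of 0.14 (adjusted p = 0.630 and 0.469 by edgeR). Whether Ago3 changed more than Ago1 or Ago4 was not tested.

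Tnrc6a encodes a GW182 protein that links Argonaute to the deadenylases. Its level was 3.16 and 2.18 CPM per kb in Tdrd6+/- and 2.64 and 2.15 CPM per kb in Tdrd6-/-. Ranked by level, the samples of the 2 genotypes alternated. The log2 fold change was -0.16 with a standard error of 0.18, and it turned to 0.15 without Tdrd6+/- sample 1.

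**Figure D2:**
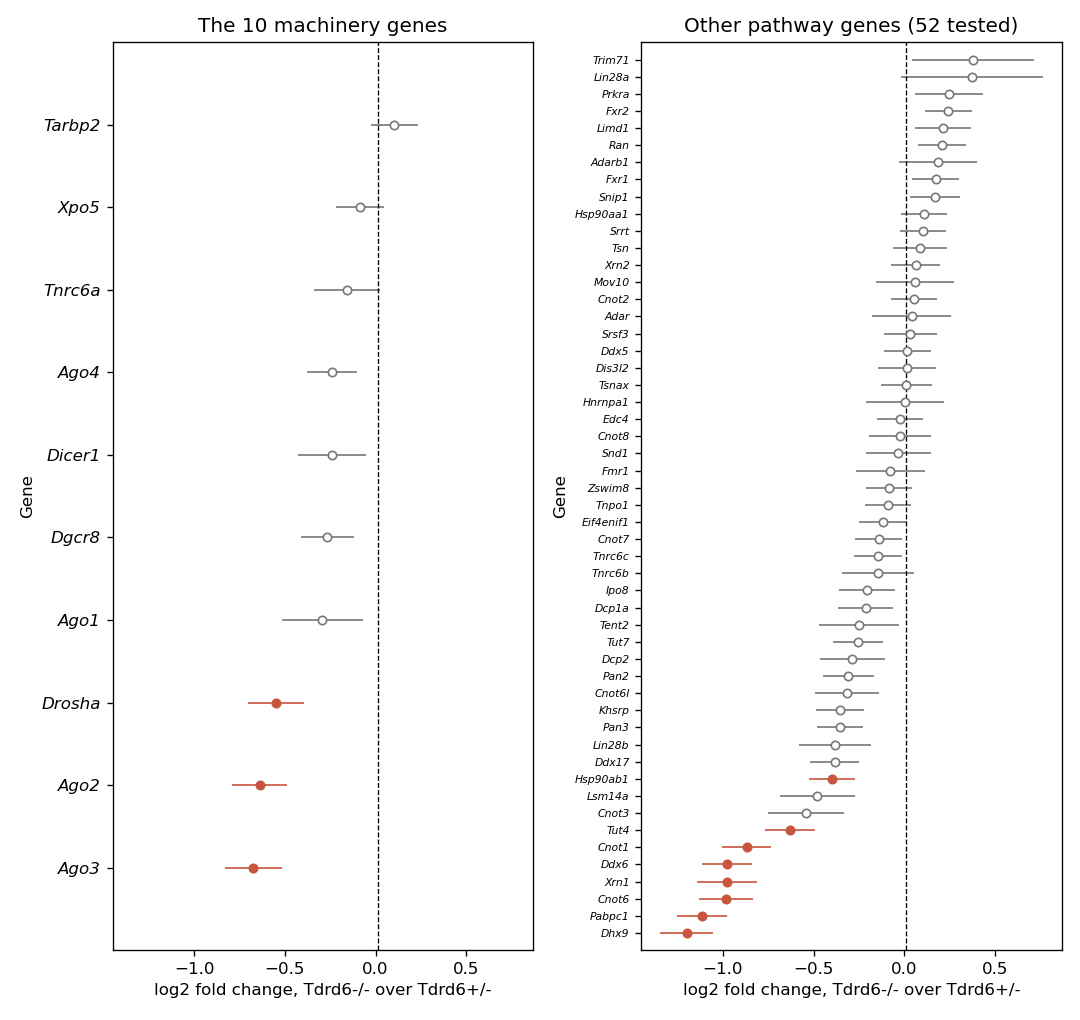
Log2 fold change of Tdrd6-/- over Tdrd6+/- (x axis) with its standard error for the 10 machinery genes (left) and the 52 other pathway genes tested (right), filled red where called at a false discovery rate of 0.1, with the median of all genes as a dashed line. Ago3, Ago2 and Drosha were called among the members, with values of -0.67 to -0.55, and 8 genes were called on the right, down to -1.20 for Dhx9.

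Because Drosha and Ago3 were both lower, their promoters are shown, from 250 bases before to 50 bases after the RefSeq start (GRCm38.p6, 5′ to 3′ on the strand of the gene). Ago2 had no entry in the promoter table used. Capitals mark each CCAAT and GGGCGG on either strand, so that ATTGG and CCGCCC are in capitals too, and neither promoter held TATAAA on either strand. The Drosha promoter is chr15:12824565-12824864 on the plus strand, and the Ago3 promoter is chr4:126429493-126429792 on the minus strand.
Drosha promoter: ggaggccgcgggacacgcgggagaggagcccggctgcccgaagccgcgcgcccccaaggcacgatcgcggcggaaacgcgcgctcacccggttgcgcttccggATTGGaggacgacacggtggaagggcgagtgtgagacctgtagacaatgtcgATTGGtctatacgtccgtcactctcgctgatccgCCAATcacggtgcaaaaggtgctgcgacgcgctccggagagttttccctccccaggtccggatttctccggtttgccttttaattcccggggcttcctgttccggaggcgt
Ago3 promoter: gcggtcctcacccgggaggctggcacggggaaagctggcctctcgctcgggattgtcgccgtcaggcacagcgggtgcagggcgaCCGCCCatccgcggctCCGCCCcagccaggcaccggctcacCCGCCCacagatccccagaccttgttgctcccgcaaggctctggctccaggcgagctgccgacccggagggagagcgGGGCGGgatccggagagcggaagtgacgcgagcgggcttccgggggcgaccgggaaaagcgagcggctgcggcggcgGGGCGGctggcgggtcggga
The Drosha sequence held 3 CCAAT matches and no GGGCGG, whereas the Ago3 sequence held 5 GGGCGG matches and no CCAAT. Of 32851 mouse promoters in the table, 37.4% held CCAAT, 35.7% held GGGCGG and 13.6% held TATAAA. Of the members that were not called lower, Ago4 held 5 GGGCGG matches and Tarbp2 3 of each. Dgcr8 held 4 CCAAT and 2 GGGCGG matches, and Dicer1 and Ago1 each held 1 CCAAT and 2 GGGCGG. Xpo5 held 1 GGGCGG, and Tnrc6a held neither motif.

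The other genes of the pathway were read from a list of 53 genes, of which 52 passed the filter on low counts and Zc3h12a did not. Of the 16555 genes tested in the whole data, edgeR called 625 lower and 169 higher in Tdrd6-/-. At an unadjusted p under 0.05, 1557 of these were lower and 759 higher. Of the 52 pathway genes, 8 were lower and 0 were higher by edgeR, and DESeq2 gave the same counts. At an unadjusted p under 0.05, 14 of the 52 were lower and 0 were higher. With a sample left out, 6 to 12 were called and 7 to 19 had an unadjusted p under 0.05, both counts lowest without Tdrd6-/- sample 2 and highest without Tdrd6+/- sample 2. Their median log2 fold change was -0.09. Of the 8, 4 were among 25 silencing effectors, 2 among 9 tailing and turnover genes, 1 among 10 nuclear cofactors and 1 among 8 export, dicing and loading partners.

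Dhx9, an RNA helicase that binds double-stranded RNA, had the smallest p. It had 300.3 and 265 CPM in Tdrd6+/- and 140.5 and 106 CPM in Tdrd6-/-, a log2 fold change of -1.20 with a standard error of 0.15 (adjusted p = 3.4e-05 by edgeR). Pabpc1, the cytoplasmic poly(A)-binding protein that TNRC6 proteins contact, had 2340 and 2944 CPM in Tdrd6+/- and 1277 and 1162 CPM in Tdrd6-/-. Its log2 fold change was -1.12 (adjusted p = 4.6e-05 by edgeR).

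The other 3 with the smallest p were all silencing effectors, namely the decapping activator Ddx6, and Cnot6 and Cnot1, a deadenylase subunit and the scaffold of the CCR4-NOT complex. Ddx6 had 333 and 322 CPM in Tdrd6+/- against 184 and 148 CPM in Tdrd6-/-. Cnot6 had 112 and 88.6 CPM against 54.4 and 46.9 CPM, and Cnot1 had 2001 and 2022 CPM against 1197 and 1004 CPM. Their log2 fold changes were -0.98, -0.98 and -0.87, and in none did the genotypes overlap. These changes were larger in size than those of Drosha, Ago2 and Ago3, although the difference between the genes was not tested. Ddx5, Tnrc6b, Cnot3, Edc4 and Fmr1 were counted in rows merged with an overlapping gene and none of them was called.

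To see whether unspliced RNA of the members moved apart from their mRNA, the sum of a gene's intron counts was set against its gene count. The machinery genes differed widely in this ratio. Tarbp2 had 3.08 to 3.68 intron counts per 100 gene counts over the 4 samples. Ago4, Ago1 and Xpo5 had between 21.3 and 30.6, and Ago3, Drosha, Dgcr8 and Dicer1 between 48.5 and 94.8. Ago2 had 216 to 260.3 and Tnrc6a 155 to 227, so that both had more counts on introns than on exons in every sample.

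**Figure D3:**
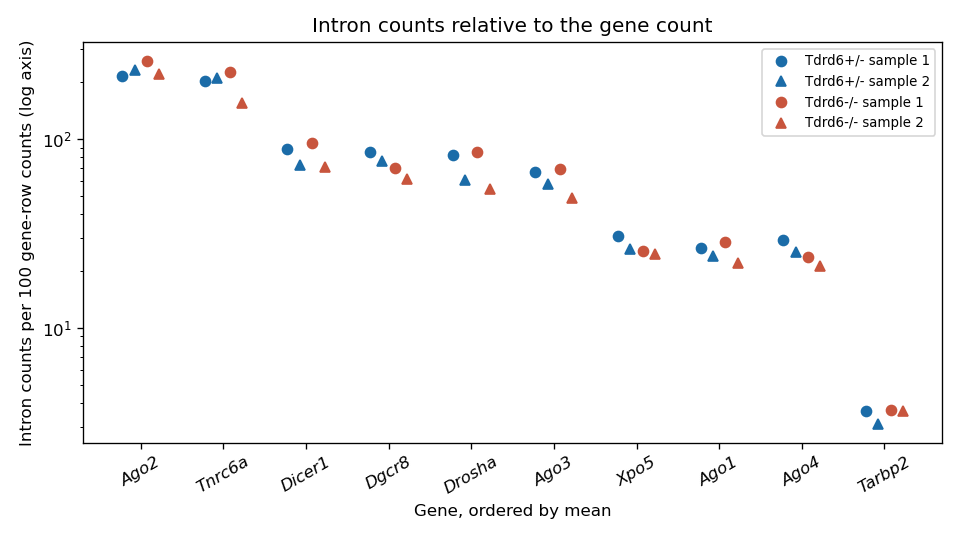
Intron counts per 100 gene counts (log axis) of each of the 10 genes in the 4 samples, blue for Tdrd6+/- and red for Tdrd6-/-, circles for sample 1 and triangles for sample 2, not scaled for the intron content of the library. The genes spanned from about 3 for Tarbp2 to over 200 for Ago2, and Tdrd6-/- sample 2, the library with the lowest intron share, was the lowest sample for 8 of the 10 genes.

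After the intron and gene totals were scaled separately, 0 of the 10 members were called for a change of the ratio by edgeR, with 2 at an unadjusted p under 0.05. Of 16182 genes tested, 1.9% were called and 1920 had an unadjusted p under 0.05. The 2 members were Tarbp2, with a log2 change of 0.43 and a standard error of 0.19 (adjusted p = 0.351 by edgeR), and Ago2, with 0.39 and a standard error of 0.17 (adjusted p = 0.358). Tarbp2 passed with Tdrd6-/- sample 1 left out (log2 change 0.62, adjusted p = 0.0780), while without Tdrd6-/- sample 2 its log2 change was 0.23 (adjusted p = 0.829). The median over the members was 0.22 and over all genes 0.06. With 1 scaling for both kinds of count, the median of all genes moved to -0.23. The values of Drosha, Ago3, Ago4, Xpo5 and Tnrc6a turned from positive to negative, so no direction of this ratio is given for them. Under this scaling 0 members had an unadjusted p under 0.05 in edgeR, and the log2 change of Ago2 was 0.09.

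Most of Ago2's intron counts lay on 1 row. Its intron 018, the last row along the chromosome and thus at the 5′ end of this minus strand gene, had 4991 and 4346 counts in Tdrd6+/- against 4306 and 3375 in Tdrd6-/-. This was 84.6% to 86.1% of the gene's intron counts in each sample, and its usage did not pass the test between genotypes (log2 change 0.06, adjusted p = 0.963 by the DESeq2 usage test explained next). The neighbouring intron 017 had 444 counts in all 4 samples together against 17018. The annotation has 19 gaps between Ago2's exons against 18 intron rows, so the row was not given a position. Over the whole stretch of 38195 bp that the 2 gaps nearest the 5′ end cover, intron 018 would have 446 counts per kb, against 53.8 counts per kb of intron 017 over the gap of that number. Without this row Ago2 had 33.3 and 32.6 intron counts per 100 gene counts in Tdrd6+/- and 36.1 and 31.8 in Tdrd6-/-, which is just above the range of Ago4, Ago1 and Xpo5.

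In every other member the largest intron row held a smaller share than in Ago2. For Tnrc6a, intron 002 held 37.4% to 40.8% of the intron counts, and for Dicer1, on the minus strand, intron 026 of 26 held 31.1% to 34.3%. Ago3 intron 016, a gap of 20914 bp (chr4:126377042-126397955), held 28.1% ± 0.256 in Tdrd6+/- and 22.6% ± 1.83 in Tdrd6-/- (SD, n = 2 each). Tarbp2 intron 002 (754 bp, chr15:102519721-102520474) held 69.6% and 58.5% in Tdrd6+/- and 73.8% and 73.3% in Tdrd6-/-. Neither of these last 2 passed the usage test (adjusted p = 0.494 and 0.486 by DESeq2).

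The largest row of Xpo5, intron 005 (chr17:46209670-46214189), was at 13.3% to 13.7% in all 4 samples. Ago4 intron 003 (chr4:126497313-126506743) had 16.2% ± 0.170 in Tdrd6+/- and 12.3% ± 0.238 in Tdrd6-/- (SD, n = 2 each), which did not pass (adjusted p = 0.463 by DESeq2). Drosha intron 024 (chr15:12890548-12901102) held 12.4% to 15.9%, Dgcr8 intron 016 10.6% to 15.0%, and Ago1 intron 018 (chr4:126463856-126468396), which had only 9 to 14 counts, 17.7% to 22.6%.

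Intron usage, the count of an intron relative to the other introns of its gene, was tested with the DEXSeq model fitted in DESeq2. Of the 210 member introns, 188 had the 10 counts needed to enter and 28 lay above the filter on the mean count of 85.5 that the adjustment chose. These 28 came from every member except Ago1, which had no intron above the filter. One intron was called, intron 006 of Dgcr8, and it was lower in Tdrd6-/-. Over the whole data 1.94% of 28903 introns above the filter were called.

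Dgcr8 intron 006 had 340 and 244 counts in Tdrd6+/- against 170 and 118 in Tdrd6-/-. As a share of Dgcr8's intron counts this was 15.1% and 14.9% in Tdrd6+/- and 10.1% and 8.34% in Tdrd6-/-, with the genotypes well apart and the 2 controls nearly equal. The usage log2 change was -0.79 with a standard error of 0.21 (adjusted p = 0.0245 by DESeq2). The call rested on the way the dispersion was modelled: it was made with a dispersion trend over the intron's own mean count, a setting taken up only after a trend over the mean of intron and remaining counts had been run, under which this intron was not called (adjusted p = 1.00, unadjusted p = 0.00802). edgeR's usage test did not call it either (unadjusted p = 0.00907), nor did the fits without Tdrd6+/- sample 1, Tdrd6+/- sample 2 or Tdrd6-/- sample 2, with adjusted p of 1.00, 0.240 and 0.972. The usage log2 change stayed between -0.95 and -0.65 in all alternatives run.

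The intron next to it had values in the same direction without passing the test. Dgcr8 intron 005 had a share of 12.7% and 12.6% in Tdrd6+/- and 9.35% and 7.28% in Tdrd6-/- (usage log2 change -0.68, standard error 0.22, adjusted p = 0.107 by DESeq2). Intron 007 had 12.7% and 9.26% against 11.3% and 8.20%, and its groups overlapped. Of the Dgcr8 rows above the filter, introns 013 and 016 had the smallest p in the other direction, with usage log2 changes of 0.58 and 0.32 and adjusted p of 0.473 and 0.658. Since a share falls when others rise, the 17 rows are not independent of each other.

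**Figure D4:**
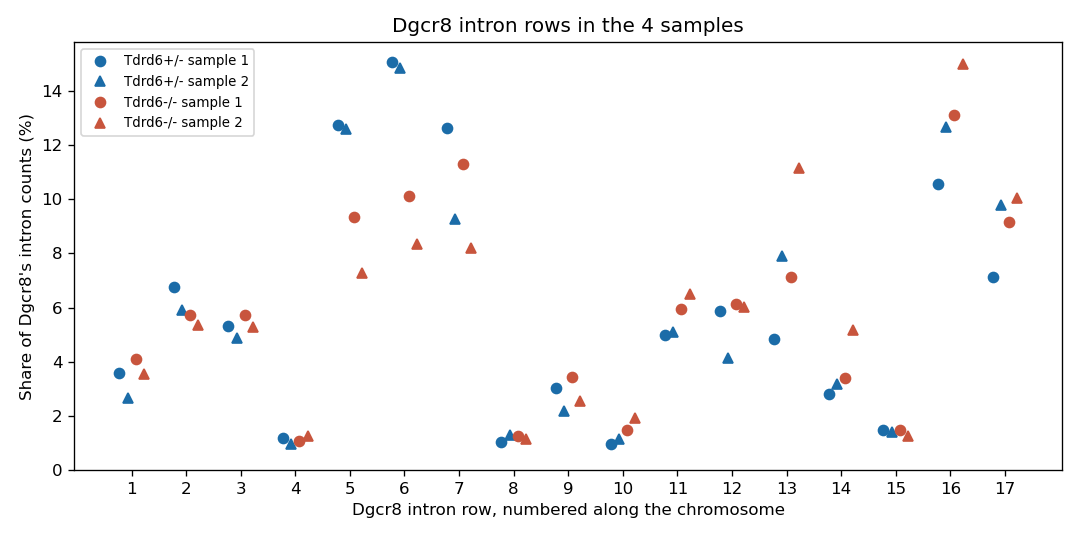
Share of Dgcr8's intron counts (y axis, percent) on each of its 17 intron rows, numbered along the chromosome (x axis), with 1 point per sample, blue for Tdrd6+/- and red for Tdrd6-/-, circles for sample 1 and triangles for sample 2. Rows 5 and 6 held 12.6% to 15.1% in both Tdrd6+/- samples and 7.28% to 10.1% in both Tdrd6-/- samples.

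The 17 intron rows of Dgcr8 exceeded the 14 gaps between its annotated exons by 3. There were 2 readings of the annotation that gave 17, and both counted the 2 microRNA hairpins that lie within a Dgcr8 exon on the same strand, Mir1306 and Gm24572, as rows of their own and left out 1 transcript. Under both, intron 006 is chr16:18265270-18271245, a gap of 5976 bp, intron 005 is chr16:18259980-18265138, and rows 013 and 014 are the hairpins. Row 013 had the same counts as Dgcr8 exon segment E023 in all 4 samples. No other intron row of a member with at least 50 counts equalled an exon segment, so row 014 matched none. The placement is therefore an inference from the number of rows. Rows 013 and 014 were kept as introns in Dgcr8's intron sum, its ratio to the gene count and its usage shares. The hairpins are substrates of the Microprocessor, of which DGCR8 is itself a part, and are shown with their mature arms in capitals (RefSeq, GRCm38.p6, minus strand, 5′ to 3′). Mir1306 is chr16:18284239-18284317 and Gm24572, which yields miR-3618, is chr16:18284550-18284637.
Mir1306 hairpin: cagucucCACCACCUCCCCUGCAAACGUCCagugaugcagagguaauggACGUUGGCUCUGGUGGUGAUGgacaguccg
Gm24572 hairpin: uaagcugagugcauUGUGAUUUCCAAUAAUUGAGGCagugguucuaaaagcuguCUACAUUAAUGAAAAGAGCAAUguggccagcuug
The mature sequences follow with the seed, bases 2 to 8, in capitals.
mmu-miR-1306-3p: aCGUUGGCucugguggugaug
mmu-miR-1306-5p: cACCACCUccccugcaaacgucc
mmu-miR-3618-3p: cUACAUUAaugaaaagagcaau
mmu-miR-3618-5p: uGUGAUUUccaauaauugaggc
No 2 of the 4 share a seed. Row 013 had 109 and 130 counts in Tdrd6+/- against 120 and 158 in Tdrd6-/-, and row 014 had 63 and 52 against 57 and 73. Row 013 did not pass the usage test, and row 014 lay under the filter on the mean count. Under the inferred placement, these are fragments of long RNA over the hairpins, and not mature microRNAs, which the libraries do not measure.

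After the introns of Dgcr8, the third smallest p belonged to Ago4 intron 009, which was higher in share in Tdrd6-/-. It had 81 and 100 counts in Tdrd6+/- against 117 and 128 in Tdrd6-/-, or 7.07% and 11.4% against 12.8% and 16.8% of the intron counts. The usage log2 change of 0.79 with a standard error of 0.29 did not pass (adjusted p = 0.190 by DESeq2). It passed without Tdrd6+/- sample 2 (0.0856) and without Tdrd6-/- sample 1 (0.0990). Without Tdrd6+/- sample 1 the usage log2 change was 0.42 and without Tdrd6-/- sample 2 it was 0.56, with an adjusted p of 1.00 in both, as also in edgeR's usage test and with the other dispersion trend. With the replicate number as a block, which pairs samples by a number that the labels do not explain, Dgcr8 introns 005 and 006 and Ago4 intron 009 were all called (3 introns).

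Exon segments and junctions were tested in the same way against the rest of the gene count. Of 540 rows, 511 entered and 235 lay above the filter of 53.5 mean counts. By DESeq2, 0 of the member rows were called and 13 had an unadjusted p under 0.05, and by edgeR's usage test 0 were called and 14 had an unadjusted p under 0.05. Over the whole data, 0.251% of 159541 rows were called. The rows above the filter numbered 63 for Xpo5, 43 for Tarbp2, 35 for Ago4, 34 for Dgcr8, 32 for Drosha and 19 for Ago2, but only 4 for Dicer1, 3 for Tnrc6a and 1 each for Ago1 and Ago3.

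Of the exon segments, Dgcr8 E012 had the smallest p. It had 136 and 84 counts in Tdrd6+/- against 70 and 34 in Tdrd6-/-, or 5.14% and 3.94% against 2.94% and 1.47% of the gene count, with no overlap. The usage log2 change was -1.10 with a standard error of 0.32 (adjusted p = 0.146 by DESeq2). It passed without Tdrd6+/- sample 2 (adjusted p = 0.0596), without Tdrd6-/- sample 1 (0.0131) and with the replicate block (0.0535). It did not pass without Tdrd6+/- sample 1 or without Tdrd6-/- sample 2 (adjusted p = 1.00 in both, and a usage log2 change of -0.65 in the latter), with the other dispersion trend (1.00) or in edgeR's usage test (0.500). The segment numbered before it, E011, had 45 and 39 counts against 26 and 13, a usage log2 change of -1.12, and lay under the filter.

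Ago3 E002 held most of the counts of its gene. It had 1156 and 951 counts in Tdrd6+/- and 747 and 661 in Tdrd6-/-, which was 70.1% and 69.1% of the Ago3 count in Tdrd6+/- and 63.1% and 62.6% in Tdrd6-/-. Samples of a genotype were close and the genotypes apart, but the usage log2 change of -0.44 with a standard error of 0.13 did not pass (adjusted p = 0.221 by DESeq2). Outside E002, Ago3 had 18.8 and 15.3 CPM in Tdrd6+/- and 13.8 and 12.3 CPM in Tdrd6-/-, and on E002 44.1 and 34.1 CPM against 23.6 and 20.7 CPM. Both Tdrd6-/- samples were thus below both Tdrd6+/- samples in each part of the gene. The separation was larger on E002, which supplies most of the count behind the gene-level call. Whether Ago3 outside E002 would pass a test by itself was not tested.

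The junctions with the smallest p were Drosha J087, with 40 and 35 counts in Tdrd6+/- and 18 and 12 in Tdrd6-/-, Drosha J076, with 41 and 47 against 22 and 20, and Ago3 J050, with 9 and 14 against 25 and 13. Their usage log2 changes were -1.04, -0.78 and 1.14, with standard errors of 0.45, 0.40 and 0.59. All 3 lay under the filter of the DESeq2 usage test and thus have no adjusted p there, and edgeR's usage test called none of them (adjusted p = 1.00 each). Some rows carry a further limit. Genes on the opposite strand overlap Dgcr8 (Trmt2a), Ago2 (Chrac1), Ago4 (Gm12935) and Xpo5 (Gm22474). The strand setting of the counting is not given in the sources used here, so reads from these genes could not be told apart there. Genes on the same strand overlap Drosha (Gm47288), Ago4 (Gm12934), Tnrc6a (Gm45846) and Xpo5 (Mir693). Gm49776 overlaps Dgcr8 in the same way, besides the microRNA genes named above. A strand setting could not separate the reads of same-strand genes.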

How the data were processed

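The authors mapped read pairs on mm10 by GSNAP, used Ensembl v75 as annotation and deposited raw counts per gene, exon segment, junction and intron, without normalization. bcl2fastq 1.8.4 is named in the submitters' processing notes, and the counting program is not given in the sources used here. Groups were taken from the genotype in the labels. Positions and exon lengths came from GENCODE M21 (mm10), and introns were placed by order where the numbers of rows and gaps were equal. Sequences came from RefSeq (GRCm38.p6), whose promoter table matched 9 of the 10 members.

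Gene counts were tested in R 4.3.3 by the quasi-likelihood test of edgeR 4.0.16, with TMM scaling and the filterByExpr filter, at a false discovery rate of 0.1. Standard errors were derived from the F statistic. DEXSeq and JunctionSeq were not installed, so their models were fitted in DESeq2 1.42.0 with a likelihood ratio test, on features with at least 10 counts in total, after which the adjustment filtered on the mean count. Intron sums against gene counts were tested as an interaction in edgeR. The scripts were run on simulated counts with the same dispersion for every feature, which cannot test the choice of dispersion trend. Counting error at 43778449 to 47221554 fragments per sample matters mainly for rows with few counts.

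The members and lists were chosen with earlier results of these data known. In the usage tests, the dispersion trend was first fitted on the mean of own and remaining counts, which called 1 intron in the whole data. It was then changed to the feature's own mean, after this low count had been seen and because DEXSeq was recalled, without its code at hand, to work that way, and 561 introns were called. The first version is kept as an alternative. Rows that merge overlapping genes were kept because Dgcr8 is in one, which was also decided after the files had been seen. All 10 members were named, with every called feature, otherwise the 3 features of each kind with the smallest unadjusted p, the largest intron of each member, and the 5 other pathway genes with the smallest p among those called.

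Same-numbered samples of the 2 genotypes deviated with a correlation of -0.118 over 12347 genes, so the replicate numbers were not used as pairs. This check was made on gene counts and not on intron counts. Sample 1 had a higher share of intron counts than sample 2 in both genotypes (34.5% and 29.5% in Tdrd6+/-, 29.8% and 23.4% in Tdrd6-/-). Replicates differed by more than sampling noise (chi-square per degree of freedom 20.3 and 17.8). Alternatives were other tools, scalings, filters and thresholds, a replicate block, and each sample left out in turn.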

Additional observations from a re-analysis of the deposited data

How the results depend on the processing

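Of the 10 machinery genes, 3 were called lower with all samples, and leaving out each sample in turn gave 0 to 4. The count was 0 without Tdrd6+/- replicate 1, 0 without Tdrd6-/- replicate 2, and 0 with no filter on low counts, where 3 still had an unadjusted p under 0.05. Over all genes, the count of calls there went from 794 to 75. The other pathway genes gave 8 calls and 5 without the filter. For introns, the 1 call became 0 with the dispersion trend on the mean of own and remaining counts, 0 with edgeR's usage test and 3 with the replicate block, and 0 to 3 when a sample was left out. Exon segments and junctions gave 0 calls, 1 with the replicate block (Dgcr8 E012) and 0 to 1 when a sample was left out. The intronic against exonic counts gave 0 calls and 0 to 1 when a sample was left out. With 1 sample of a genotype left, that sample is assumed to vary like the other group. The replicate block pairs samples by a number that the labels do not explain, and it left the gene calls at 3 of 10 members. Pairing the numbers crosswise called 3 members by gene count, 1 member intron and 0 exon segments or junctions, and 1175 genes, 255 introns and 352 exon segments or junctions in the whole data, and was chosen after seeing the data, as were the other dispersion trend and the fit without merged genes. In the whole data, the calls for introns were 561, 1 with the other dispersion trend, 2 with edgeR, 881 with the replicate block, 1284 against the exonic count, and 4 to 1175 with a sample left out, and for exon segments and junctions they were 401, 60 with the other trend, 91 with edgeR, 327 without merged genes, and 53 to 878 with a sample left out.

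Signs turned only for values that had not passed a test. The log2 fold change of Xpo5 became 0.00010 without TMM and 0.011 without Tdrd6+/- replicate 2, and that of Tnrc6a ranged from -0.40 to 0.15 with a sample left out, the latter without Tdrd6+/- replicate 1. The intronic against exonic log2 change with 1 scaling became -0.055 for Drosha, -0.10 for Ago3, -0.27 for Ago4, -0.16 for Xpo5 and -0.14 for Tnrc6a. With a sample left out it ranged from -0.11 to 0.10 for Dgcr8 (positive without Tdrd6-/- replicate 1), from -0.10 to 0.16 for Ago4 (-0.0014 without Tdrd6+/- replicate 2, and the lowest without Tdrd6-/- replicate 2) and from -0.047 to 0.31 for Xpo5 (the lowest without Tdrd6-/- replicate 2). The cause of these changes was not tested. The other 334 recomputed values of single genes and features kept their direction, 307 of them also on the same side of the threshold. The median level of the members, 5.93 CPM per kb, moved by less than its spread over the samples.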

Other observations

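The 2 unannotated junctions of the members were one of Dgcr8, with 12 and 4 counts in Tdrd6+/- against 11 and 15 in Tdrd6-/-, and one of Ago3, with 13 and 13 against 18 and 13. Neither passed the filter on the mean count.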
